A study of Caenorhabditis elegans with 12 samples.

Results

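The small heat shock protein genes of C. elegans outside the hsp-16 group were followed across strain and heat shock (HS). The members were taken by name from the count tables as the genes of the alpha-crystallin family other than hsp-16, which gave 10 of 46904 gene identifiers: hsp-12.1, hsp-12.2, hsp-12.3, hsp-12.6, hsp-17, hsp-25, hsp-43, sip-1, F08H9.3 and F08H9.4. Total RNA of whole L4 stage worms had been sequenced from 12 libraries, with 3 replicates in each of 4 groups. WT (N2) and miR-85(n4117) animals, which lack the microRNA gene mir-85, were either kept at 20°C for 47 hrs or kept at 20°C for 44 hrs and then moved to 35°C for 3 hrs. The deletion strain is 1 allele, and the paper states that it also partially disrupts the gene F49E12.8. Effects of the loss of mir-85 and of that disruption cannot be told apart in these libraries. The replicates are described as biological replicates, each a population of animals. In RNA from whole worms, a change in the number of cells of a type and a change of the RNA per cell cannot be told apart.

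Small heat shock proteins carry a conserved alpha-crystallin domain and hold unfolding proteins without using ATP, so that other chaperones can later refold them. In C. elegans the hsp-16 genes are the classical heat-inducible members, switched on by the heat shock transcription factor HSF-1, and some small heat shock protein genes are also targets of the insulin-regulated factor DAF-16. The family members outside hsp-16 differ in tissue and developmental stage, and several are made without any stress.

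The members lie on 5 chromosomes of the WBcel235 assembly, and all but hsp-12.2 are on the minus strand. hsp-12.3 (IV, 9444791 to 9445507) and hsp-12.6 (IV, 9446229 to 9447228) are neighbours on the same strand, 721 bases apart. F08H9.3 (V, 14461947 to 14463338) and F08H9.4 (V, 14463520 to 14464428) are a second such pair, 181 bases apart. The others stand alone: hsp-12.1 on chromosome I (10581538 to 10582615), hsp-12.2 (8138077 to 8139631) and sip-1 (10506106 to 10506801) on III, hsp-17 on V (8384799 to 8385929), and hsp-25 (6034463 to 6039644) and hsp-43 (6233151 to 6235543) on X. Counting used the strand of the reads, so genes on the opposite strand do not add to the values. On the same strand, 235 of the 566 exon bases of F08H9.4 are shared with exons of srz-97, a gene with 0 to 5 counts in every library. In F08H9.3, 151 of 1111 exon bases are shared with the small nuclear RNA gene F08H9.10, which had 413 to 2795 counts. How reads in these shared bases were assigned could not be told from the tables, and their part in the values was not tested.

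The libraries held 23871531 to 38586076 counts, of which 9505142 to 29652439 were on protein-coding genes. WT replicate 3 at 20°C stood apart, with 65.5% of its counts on ribosomal RNA genes against 13.7% to 32.9% in the other 11 libraries. All miR-85(n4117) libraries and WT replicate 1 at both temperatures were sequenced in lane 3, and WT replicates 2 and 3 at both temperatures in lane 8. The labels were checked on F49E12.8, the host gene of mir-85, which had 142, 220 and 78 counts in WT replicates 1, 2 and 3 at 20°C and 2, 0 and 2 counts in miR-85(n4117), and 85 to 92 against 3 to 11 counts after HS. Of 7 marker lists (oocyte and embryo, sperm, yolk, body wall muscle, epidermis, larval molt and adult epidermis) 0 genes were at 0 in every library, and the stage markers differed between libraries. Among the HS libraries, replicate 2 of both strains had the highest summed levels of the 2 adult epidermis collagen markers (3659 and 2212 against 232 to 1366 RPKM, depth-scaled reads per kilobase of exon) and of the 6 yolk protein genes (1167 and 831 against 29.8 to 499 RPKM), and the lowest of the 4 larval molt markers (26.0 and 23.5 against 81.9 to 177 RPKM).

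Whether HS altered these genes was examined first. In the account below a normalized count is a read count scaled to the mean library size by TMM factors. The fits behind the calls took the libraries as unpaired, except where the replicate block is named. A call required, for a protein-coding gene with more than 10 normalized counts on average, a 2-fold difference (log2 of 1) and an adjusted p under 0.05 by the edgeR quasi-likelihood test over all genes tested. In WT, 5 of the 10 members were called higher after HS: hsp-12.6, F08H9.4, hsp-12.3, hsp-43 and hsp-17. The background of such calls was 6.11% of the 14748 genes open to a call. In miR-85(n4117), 4 of the 10 were called higher, the same genes without hsp-17, against a background of 4.43%. No member was called lower in either strain, where 5.42% and 3.31% of genes were. All 10 log2 fold changes were above 0 in both strains, and 49.5% and 48.1% of all genes were below 0. The median log2 fold change of the members was 2.05 in WT and 1.61 in miR-85(n4117), and that of all genes tested was 0.01 and 0.02. However, hsp-12.6, F08H9.3 and F08H9.4 passed the filter on low counts only through their HS libraries. Their rise was thus favoured in advance, and they are no independent part of these counts, signs and medians. Of the 7 members with at least 10 counts in every library, 3 were called higher in WT (4.13% of genes) and 2 in miR-85(n4117) (2.5%), and 0 were below 0. An unadjusted p under 0.05 was found for 8 members in WT and 6 in miR-85(n4117), against 36.1% and 28.4% of genes, and DESeq2 called 7 and 4 members higher, where it called 7.42% and 5.92% of genes. By separation of the libraries, 6 members in WT and 7 in miR-85(n4117) had all 3 HS libraries above all 3 libraries at 20°C, as did 19.5% and 18% of all genes, and none had them below (19.9% and 18.8% of genes).

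The stage markers also differed between the HS libraries and those at 20°C. In WT the adult epidermis markers summed to 185 to 309 RPKM at 20°C and 877 to 3659 RPKM after HS, the yolk protein genes to 146 to 164 and 387 to 1167 RPKM, and the larval molt markers to 153 to 396 and 26.0 to 104 RPKM, each without overlap. In miR-85(n4117) the same lists lay at 26.6 to 301 and 232 to 2212 RPKM, at 17.2 to 189 and 29.8 to 831 RPKM, and at 155 to 285 and 23.5 to 177 RPKM, each with overlap. The adult epidermis collagen genes col-19 and col-7 were themselves not called, with log2 fold changes of 2.97 (adjusted p = 0.060) and 4.11 (adjusted p = 0.060) in WT. The part of developmental stage in the differences after HS was not tested.

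**Figure D1:**
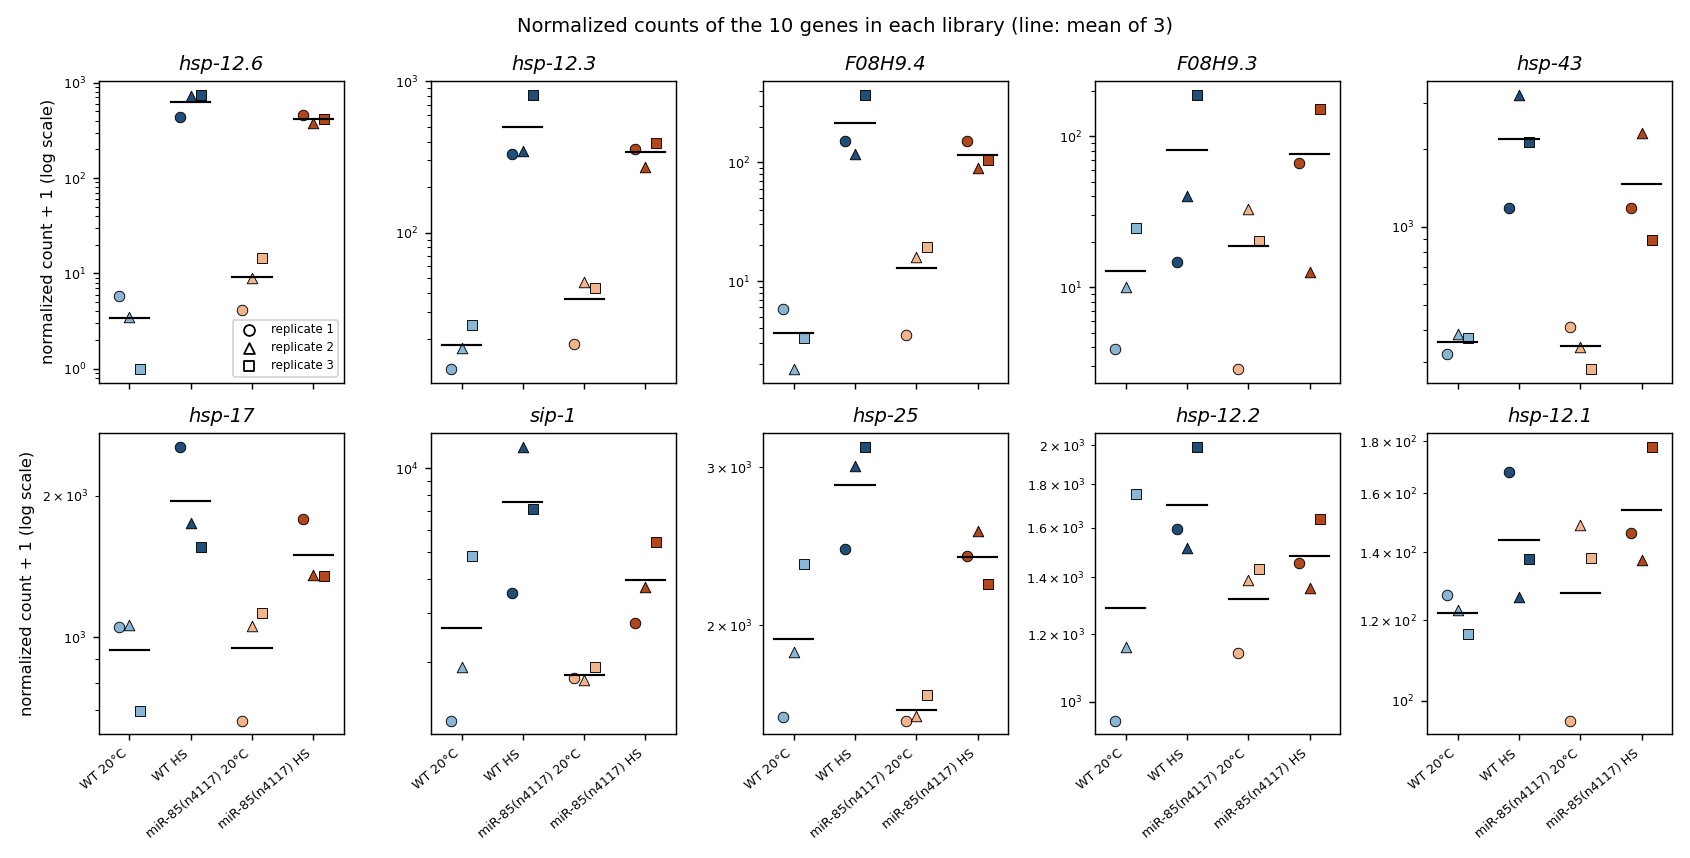
Normalized counts plus 1 of the 10 genes in the 12 libraries on log axes of different range, by group (blue, WT; orange, miR-85(n4117); light, 20°C; dark, HS), with the marker shape for the replicate number and a line at the mean of 3. The HS libraries of hsp-12.6, hsp-12.3, F08H9.4 and hsp-43 sit above all libraries at 20°C in both strains, while those of F08H9.3, hsp-12.2 and hsp-12.1 overlap with them.

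The 4 genes named hsp-12 encode the smallest proteins of the family, with little sequence on either side of the alpha-crystallin domain. Of these, hsp-12.6 is known as a target of both DAF-16 and HSF-1 with a part in lifespan, and it was nearly silent at 20°C. It had 5, 3 and 0 reads in WT replicates 1, 2 and 3 at 20°C and 377, 602 and 709 reads after HS. In miR-85(n4117) the reads were 5, 9 and 17 at 20°C and 412, 360 and 356 after HS. In both strains the groups were far apart, and the fold rests on a total of 8 reads in WT and 31 in miR-85(n4117) at 20°C. The ratio of summed, depth-scaled counts was 212 in WT (95% exact interval 107 to 491) and 53.7 in miR-85(n4117) (37.6 to 79.3), where the intervals cover counting error only. The fitted log2 fold changes were 7.69 (SE 0.56, adjusted p = 9.1e-06) and 5.69 (SE 0.47, adjusted p = 2.2e-05), the highest of the 10 in each strain, at ranks 35 and 78 of 14748 genes. Without WT replicate 1 at 20°C, which held 5 of the 8 reads, the value in WT was 8.37.

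hsp-12.3, the neighbour of hsp-12.6, was detected at low levels before HS. Its normalized counts in WT were 11.6, 16.47 and 23.5 at 20°C and 332, 348 and 814 after HS. In miR-85(n4117) they were 17.5, 46.0 and 42.5 at 20°C and 357, 270 and 389 after HS. The HS libraries did not overlap with those at 20°C, and WT replicate 3 was the highest of all 12. The log2 fold change was 4.92 in WT (SE 0.51, adjusted p = 0.00011) and 3.27 in miR-85(n4117) (SE 0.45, adjusted p = 0.00074). Across the 12 libraries the log2 levels of hsp-12.3 and hsp-12.6 followed each other with a Pearson r of 0.97, a description over libraries that share the contrast of HS.

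The other pair of this class was not called. hsp-12.2 had normalized counts of 949, 1158 and 1753 in WT at 20°C and of 1595, 1513 and 1991 after HS, and 1140 to 1431 and 1360 to 1639 in miR-85(n4117). The groups overlapped in both strains, and the log2 fold changes were 0.40 (SE 0.21, adjusted p = 0.19) and 0.17 (SE 0.21, adjusted p = 0.64). hsp-12.1 lay between 94.6 and 177 normalized counts in all 12 libraries, with overlapping groups and log2 fold changes of 0.24 (SE 0.20, adjusted p = 0.43) and 0.27 (SE 0.20, adjusted p = 0.39). Within 1 size class there were thus 2 genes with high folds from a low start and 2 genes that were not called. hsp-12.1 had 49 to 171 reads per library.

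F08H9.3 and F08H9.4 are known by their sequence names and have not been given gene names in the annotation. F08H9.4 had 5, 1 and 1 reads in WT at 20°C and 132, 97 and 352 reads after HS, and 4, 17 and 23 reads against 135, 85 and 88 reads in miR-85(n4117). The groups did not overlap in either strain, and WT replicate 3 after HS was the highest. The ratio of summed, depth-scaled counts was 83.2 in WT (95% exact interval 40.1 to 208) and 10.3 in miR-85(n4117) (7.51 to 14.5). The fitted log2 fold changes were 6.26 (SE 0.84, adjusted p = 0.00063) and 3.28 (SE 0.66, adjusted p = 0.0074). The size in WT depended on single libraries, at 7.27 without replicate 1 at 20°C and 5.59 without replicate 3 after HS, and the call was kept in both cases.

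F08H9.3, 181 bases from F08H9.4 on the same strand, varied widely within groups. Its normalized counts were 2.9, 9.1 and 23.5 in WT at 20°C and 13.7, 39.5 and 187 after HS. In miR-85(n4117) they were 1.9, 31.9 and 19.2 at 20°C and 66.0, 11.6 and 150 after HS. Replicate 3 was the highest HS library in both strains, the highest HS library exceeded the lowest 13.7 times in WT and 12.9 times in miR-85(n4117), and the groups overlapped. In same-numbered WT pairs F08H9.3 was 4.71, 4.36 and 7.96 times as high after HS. With log2 fold changes of 2.97 (SE 1.29, adjusted p = 0.12) and 2.12 (SE 1.16, adjusted p = 0.25) it was not called. In WT the value was 1.36 without replicate 3 after HS and 3.69 without replicate 3 at 20°C, and in miR-85(n4117) it was 1.15 without replicate 3 after HS and 2.87 without replicate 2 at 20°C. With DESeq2 it was called in WT (log2 fold change 2.81, adjusted p = 0.047), and its adjusted p was above 0.05 under every other alternative in which it was tested.

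**Figure D2:**
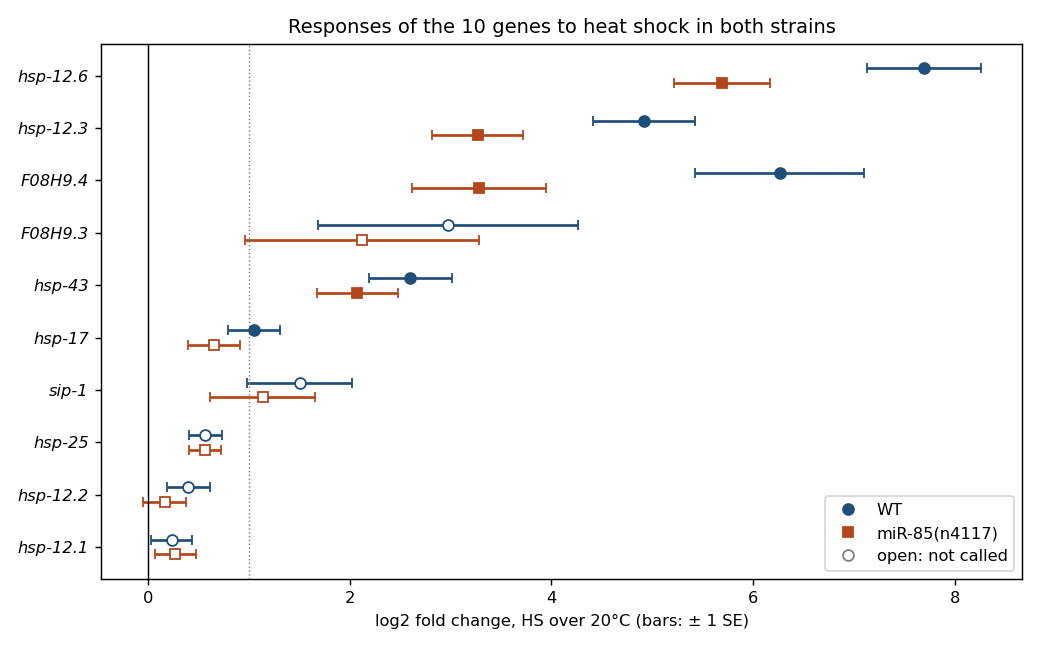
Log2 fold change of the 10 genes, HS over 20°C, in WT (circles) and miR-85(n4117) (squares), with bars of 1 SE, filled where the gene was called, and a dotted line at the limit of 1. The points run from 0.24 for hsp-12.1 to 7.69 for hsp-12.6 in WT, and hsp-25 has nearly the same value in both strains.

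hsp-43 and hsp-25 encode longer members that have been placed in muscle and in the tissues attached to it. The HSP-25 protein sits at the dense bodies and M-lines of body wall muscle, and HSP-43 has been found in the reproductive tract and where epidermis is joined to muscle. hsp-43 had normalized counts of 321, 384 and 372 in WT at 20°C and 1181, 3237 and 2121 after HS. In miR-85(n4117) it had 410, 344 and 282 at 20°C and 1186, 2306 and 887 after HS. The 6 libraries at 20°C were close together and all HS libraries were above them, with replicate 2 the highest after HS in both strains. The log2 fold changes were 2.60 (SE 0.41, adjusted p = 0.0017) and 2.08 (SE 0.40, adjusted p = 0.0059).

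The height of hsp-43 in replicate 2 after HS went together with the markers of development given above. Epidermis markers moved the other way, with 5 genes summing to 529 and 404 RPKM in replicate 2 of WT and miR-85(n4117) against 1719 to 3306 RPKM in the other 4 HS libraries. The part of developmental stage in the levels of hsp-43 was not tested. With both replicate 2 libraries left out after HS, an alternative added after the data were seen, the log2 fold changes of hsp-43 were 2.20 (adjusted p = 0.00048) and 1.58 (adjusted p = 0.0031). The number of members called stayed at 5 in WT and 4 in miR-85(n4117), where 5.45% and 4.09% of genes were called higher.

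**Figure D3:**
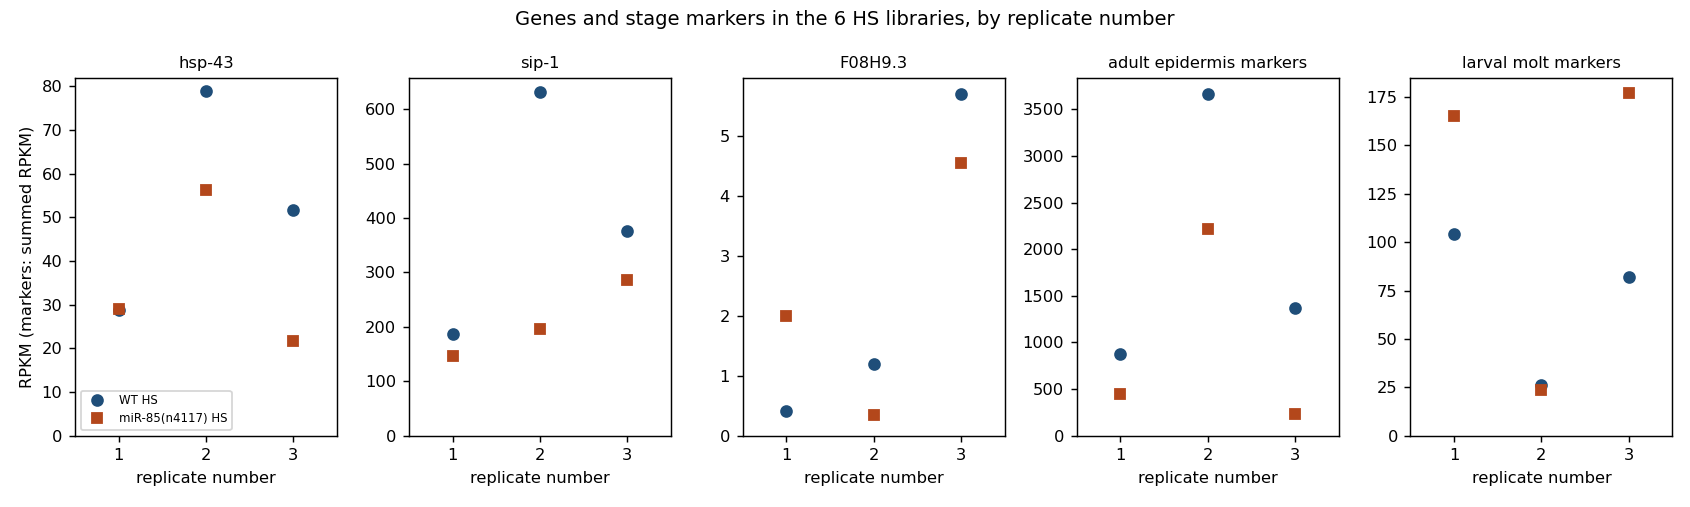
Levels (RPKM, linear axes from 0) of hsp-43, sip-1 and F08H9.3 and summed levels of 2 adult epidermis and 4 larval molt markers in the 6 HS libraries by replicate number, WT as circles and miR-85(n4117) as squares. Replicate 2 is the highest of its strain for hsp-43 and the adult markers and the lowest for the molt markers, and replicate 3 is the highest for F08H9.3.

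hsp-25 had nearly the same response to HS in both strains. It had normalized counts of 1579, 1867 and 2339 in WT at 20°C and 2428, 3010 and 3161 after HS, and of 1563, 1584 and 1670 and then 2388, 2543 and 2220 in miR-85(n4117). In both strains all HS libraries were above those at 20°C. The log2 fold change was 0.57 in both, with an SE of 0.16 in both and an adjusted p of 0.026 in WT and 0.034 in miR-85(n4117), so that hsp-25 passed the limit on p but not that on the fold. Of all genes, 10.6% in WT and 6.6% in miR-85(n4117) were higher with such a p at any fold. In WT pairs of the same number hsp-25 was 1.54, 1.61 and 1.35 times as high after HS. Its adjusted p did not hold under all alternatives. In WT it was 0.068 with no filter on low counts, 0.10 in the fit of the 6 WT libraries, and 0.074 to 0.092 without replicate 1 or 2 at 20°C or replicate 2 or 3 after HS. In miR-85(n4117) it was 0.090 with no filter and 0.052 to 0.11 in 6 of the 12 fits that left out 1 library, those without WT replicate 2 at 20°C, any miR-85(n4117) replicate at 20°C, or miR-85(n4117) replicate 1 or 2 after HS. Without both replicate 2 libraries after HS it was 0.063 and 0.086.

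hsp-17 encodes a member described as promoting the assembly of unfolding proteins into aggregates. Its normalized counts were 1050, 1063 and 697 in WT at 20°C and 2541, 1752 and 1553 after HS. In miR-85(n4117) they were 664, 1058 and 1126 and then 1786, 1356 and 1348. The groups did not overlap in either strain, and replicate 1 was the highest after HS in both. It was called in WT, just past the limit on the fold (log2 fold change 1.05, SE 0.26, adjusted p = 0.015), and not in miR-85(n4117) (0.66, SE 0.26, adjusted p = 0.11). The difference between these responses did not pass its own test, given below. The call in WT was lost without WT replicate 3 at 20°C, the library rich in ribosomal RNA and the lowest of its group (log2 fold change 0.88, adjusted p = 0.05004), without WT replicate 1 after HS (0.80, adjusted p = 0.054), and with no filter on low counts (0.9986, adjusted p = 0.011).

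sip-1 encodes a small heat shock protein of oocytes and embryos that works at acidic pH. It was the most abundant member in every group. The normalized counts were 1230, 1919 and 4840 in WT at 20°C and 3553, 11974 and 7110 after HS. In miR-85(n4117) they were 1759, 1727 and 1924 and then 2771, 3729 and 5411. The WT groups overlapped, because replicate 3 at 20°C was above replicate 1 after HS, while the miR-85(n4117) groups did not. The log2 fold changes of 1.51 (SE 0.52, adjusted p = 0.062) and 1.14 (SE 0.52, adjusted p = 0.17) did not pass. In WT pairs of the same number sip-1 was 2.89, 6.24 and 1.47 times as high after HS. Same-numbered WT libraries deviated together from their group means, and with the replicate block sip-1 was called in WT (log2 fold change 1.57, adjusted p = 0.040).

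The call of sip-1 turned on single libraries. It was also made in WT without replicate 3 at 20°C (log2 fold change 2.26, adjusted p = 0.013), without replicate 1 after HS (1.82, adjusted p = 0.029), with the lane as a covariate (1.51, adjusted p = 0.015) and with DESeq2 (1.498, adjusted p = 0.019). Without WT replicate 2 after HS the log2 fold change was 1.00 (adjusted p = 0.22). In miR-85(n4117) it was called only in the fit of the 6 libraries of that strain (1.13, adjusted p = 0.031) among the alternatives run. The summed level of 7 oocyte and embryo markers was 1003 RPKM in WT replicate 2 after HS, where sip-1 was highest, against 305 and 377 RPKM in replicates 1 and 3. In miR-85(n4117) after HS the markers were at 153, 500 and 178 RPKM in replicates 1, 2 and 3, and sip-1 was highest in replicate 3. In WT at 20°C they were at 286, 347 and 282 RPKM, and sip-1 was highest in replicate 3. Their part in the levels of sip-1 was not tested.

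The levels of the members were then compared with each other on a scale per kilobase of exon. At 20°C in WT, sip-1 was first with 141 ± 101 RPKM (SD, n = 3), followed by hsp-12.2 with 83.9 ± 27.2, hsp-25 with 57.4 ± 11.4 and hsp-17 with 56.5 ± 12.55 RPKM. The libraries of each of these genes overlapped with those of the next in the order. After a gap came hsp-43 with 8.75 ± 0.813 and hsp-12.1 with 8.21 ± 0.368 RPKM, which overlapped with each other. After a second gap came hsp-12.3 with 0.874 ± 0.304, F08H9.3 with 0.360 ± 0.322, F08H9.4 with 0.160 ± 0.121 and hsp-12.6 with 0.107 ± 0.106 RPKM, again without separation between neighbours.

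After HS in WT the order was a different one. sip-1 was at 398 ± 223 RPKM, above hsp-17 with 118 ± 31.5 RPKM in all libraries, and hsp-17 overlapped with hsp-12.2 at 111 ± 16.7 RPKM. hsp-25 followed with 85.4 ± 11.5 RPKM, below hsp-12.2 in all libraries. hsp-43 (53.2 ± 25.1), hsp-12.6 (27.8 ± 7.70), hsp-12.3 (25.3 ± 13.9), F08H9.4 (12.7 ± 8.23) and hsp-12.1 (9.70 ± 1.44 RPKM) each overlapped with the next. F08H9.3 was last with 2.44 ± 2.85 RPKM. hsp-12.6 thus moved from the tenth place to the sixth, and 3 of the members that were called from a low start remained below sip-1, hsp-12.2, hsp-25 and hsp-17 in level.

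**Figure D4:**
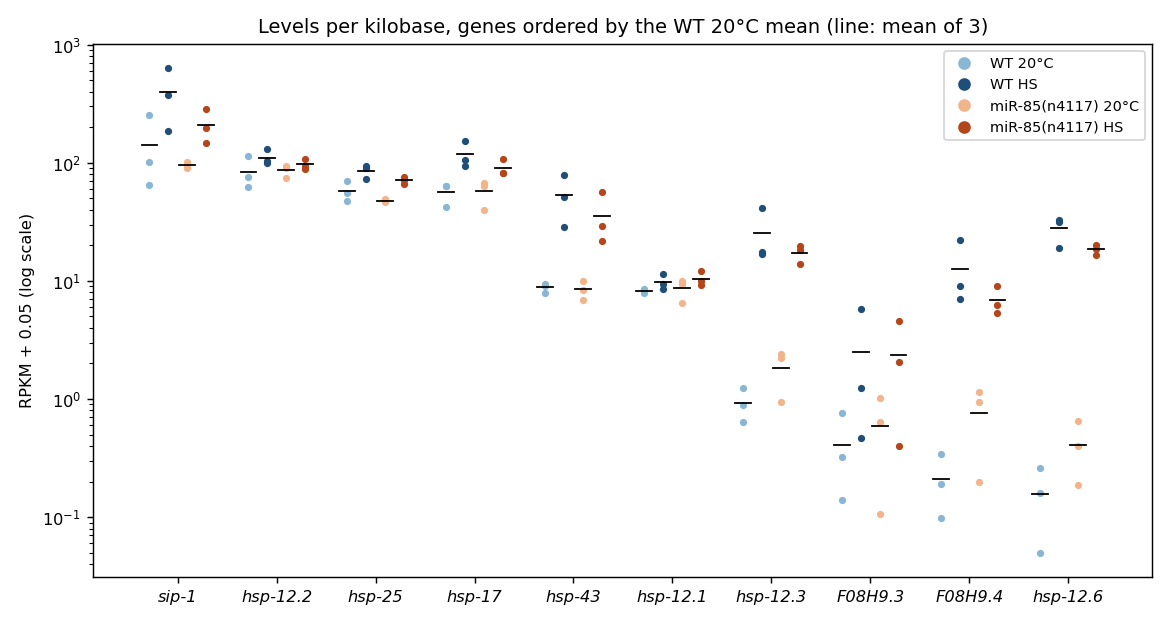
Levels of the 10 genes (RPKM plus 0.05, log axis) in the 3 libraries of each group, with a line at the mean, genes ordered by the WT mean at 20°C. At 20°C the genes form a high set near 100 RPKM and under it, hsp-43 and hsp-12.1 near 8 RPKM, and 4 genes near 1 RPKM or lower.

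In miR-85(n4117) sip-1 was at 95.2 ± 5.56 RPKM at 20°C and 210 ± 70.5 RPKM after HS, and hsp-12.2 was second at both temperatures (86.1 ± 10.2 and 96.8 ± 9.26 RPKM). The high set at 20°C held the same 4 genes as in WT. After HS the order of the top 5 was sip-1, hsp-12.2, hsp-17 (90.3 ± 15.1), hsp-25 (71.0 ± 4.81) and hsp-43 (35.6 ± 18.2 RPKM), in which only hsp-12.2 and hsp-17 overlapped. hsp-12.6 (18.4 ± 1.80 RPKM) and hsp-12.3 (17.2 ± 3.12 RPKM) overlapped with each other.

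The summed level of the 10 genes was 357 ± 128 RPKM in WT at 20°C and 843 ± 234 RPKM after HS, a ratio of 2.36. In miR-85(n4117) it was 307 ± 31.8 RPKM and 558 ± 58.4 RPKM, a ratio of 1.82. The HS libraries did not overlap with those at 20°C in either strain. The two-sided exact permutation test, with the libraries unpaired, gave p = 0.1 for both, the smallest p that 3 libraries against 3 allow. In same-numbered WT libraries the sum went from 255 to 602, from 315 to 1071 and from 500 to 856 RPKM. A paired test of HS in WT was not run. Between strains the sums overlapped at 20°C (exact p = 0.9) and after HS (exact p = 0.2), again unpaired. After HS, where same-numbered libraries were paired, the sum in miR-85(n4117) was below that in WT in all 3 pairs. It was at 508 against 602, 545 against 1071 and 622 against 856 RPKM. For the sum, the paired exact permutation test gave p = 0.25, the smallest that 3 pairs allow. Much of these differences lay in sip-1, which was not called between strains. In the same pairs it was at 146 against 188, 197 against 632 and 286 against 375 RPKM. sip-1 held 36.2 ± 13.3% of the sum in WT at 20°C and 44.7 ± 13.96% after HS, while hsp-12.6, hsp-12.3 and F08H9.4 held 0.0393%, 0.245% and 0.0524% at 20°C and 3.31 ± 0.462%, 3.09 ± 1.61% and 1.57 ± 0.971% after HS. For scale, the summed level of the 6 hsp-16 identifiers was 2.50 ± 1.58 RPKM in WT at 20°C and 7381 ± 467 RPKM after HS. The hsp-16 genes include near-identical copies between which reads may be split or dropped.

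**Figure D5:**
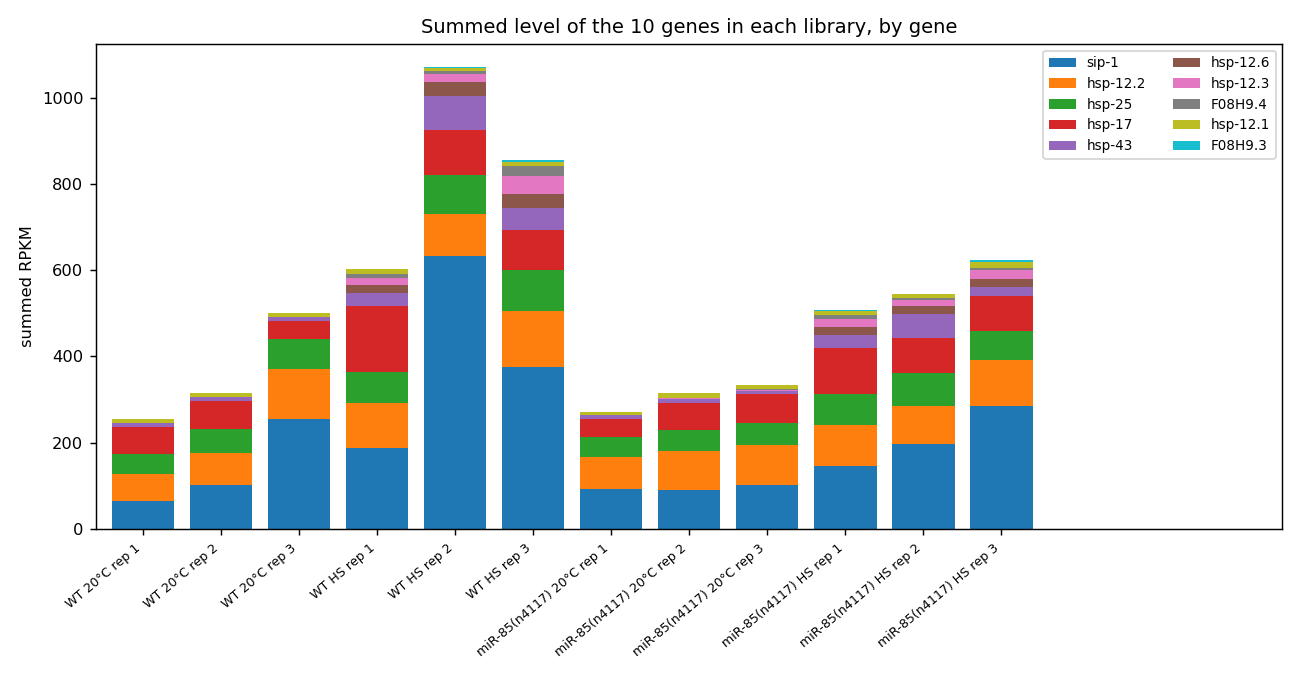
Summed RPKM of the 10 genes in each of the 12 libraries, stacked by gene. The sum runs from 255 to 500 RPKM in the WT libraries at 20°C and from 602 to 1071 RPKM after HS, and the sip-1 part is the largest in all libraries, including WT replicate 2 after HS.

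The strains were next compared at each temperature. At 20°C, 7 of the 10 members passed the filter on low counts in the fit of the 6 libraries, and hsp-12.6, F08H9.3 and F08H9.4 did not. None of the 7 was called with edgeR, where 0.0139% of 14418 genes were called higher in miR-85(n4117) and 0.0416% lower. By DESeq2 none of the 10 was called, where 0.409% and 0.527% of genes were called higher and lower. With edgeR 1 member had an unadjusted p under 0.05, as did 9.5% of all genes. It was hsp-12.3, 1.09 higher on the log2 scale (SE 0.46, adjusted p = 0.51). No member had its 3 libraries of one strain all above or all below those of the other (9.08% and 8.29% of all genes did).

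Of the 4 members that were lowest at 20°C, 3 had a shared pattern among the miR-85(n4117) libraries. The share of all genes with it was not counted, so it is not given as a trait of these members. A stricter separation, all 3 mutant libraries above all 3 of WT, was found for 9.08% of genes. hsp-12.6 was at 3.1 normalized counts in replicate 1 and at 8.0 and 13.6 in replicates 2 and 3, F08H9.4 at 2.5 against 15.1 and 18.4, and hsp-12.3 at 17.5 against 46.0 and 42.5. Replicate 1 was within the range of WT for these 3 genes, and replicates 2 and 3 were above all WT libraries. F08H9.3 did not have this pattern, with replicate 1 below and replicate 3 within the range of WT. The summed hsp-16 level in the same libraries was 5.39 RPKM in replicate 1 and 59.0 and 51.7 RPKM in replicates 2 and 3, against 1.42 to 4.31 RPKM in WT. The adult epidermis markers were at 301 RPKM in replicate 1 and at 65.4 and 26.6 RPKM in replicates 2 and 3, against 185 to 309 RPKM in WT. What part these markers, or the lane, have in the difference between the libraries was not tested. The ratio of summed, depth-scaled counts, miR-85(n4117) over WT at 20°C, was 2.60 for hsp-12.6 (95% exact interval 1.17 to 6.56), 4.22 for F08H9.4 (1.89 to 11.1), 1.76 for F08H9.3 (1.09 to 2.95) and 2.13 for hsp-12.3 (1.49 to 3.09). These intervals cover counting error only and not the spread between replicates.

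After HS all 10 members were tested between the strains and none was called with edgeR or DESeq2. By edgeR 0.00687% of 14564 genes were called higher and 0.0137% lower, and by DESeq2 0.0205% and 0.0546%. Of the 10 log2 fold changes, miR-85(n4117) over WT, 9 were below 0, as were 47.6% of all genes, and only that of hsp-12.1 was above 0 (0.10, adjusted p = 1.0). With the lane as a covariate 6 of the 10 were below 0, since hsp-12.3, hsp-43, sip-1 and F08H9.3 turned to above 0 and hsp-12.1 to below 0. The median over the members was -0.47 and that over all genes tested was 0.02. An unadjusted p under 0.05 was found for 1 member with edgeR, as for 2.29% of all genes. It was hsp-12.6, at 430, 720 and 746 normalized counts in WT and 461, 378 and 419 in miR-85(n4117) (log2 fold change -0.59, SE 0.24, adjusted p = 1.0). Its groups overlapped, since WT replicate 1 was within the range of the mutant. The values of the largest sizes were -0.93 for sip-1 (SE 0.47, adjusted p = 1.0) and -0.89 for F08H9.4 (SE 0.48, adjusted p = 1.0). No member had its libraries of one strain separated from those of the other after HS (3.2% of genes were higher and 3.65% lower without overlap). Within the same-numbered pairs after HS, 4 members (sip-1, hsp-17, hsp-25 and hsp-12.2) were lower in miR-85(n4117) in all 3 pairs, as were 16.479% of genes. sip-1 was 0.780, 0.311 and 0.761 times the WT value, hsp-17 0.703, 0.774 and 0.868 times, and hsp-25 0.983, 0.845 and 0.702 times. With the replicate block no member was called, and sip-1 had a log2 fold change of -0.81 (adjusted p = 0.64).

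The lane could be held constant only by setting WT replicate 1 against the 3 miR-85(n4117) libraries. After HS hsp-12.6 was at 430 normalized counts in this WT library and at 419 ± 41.1 in miR-85(n4117), hsp-12.3 at 332 and 339 ± 61.4, hsp-43 at 1181 and 1460 ± 748, and sip-1 at 3553 and 3970 ± 1336. In these 4 the WT library lay within the range of the mutant. hsp-17 was the exception among the abundant members, at 2541 in WT and 1497 ± 251 in miR-85(n4117), with all 3 mutant libraries below. At 20°C hsp-12.3 was at 11.6 in the WT library and 35.4 ± 15.5 in miR-85(n4117), hsp-12.2 at 949 and 1320 ± 157, and sip-1 at 1230 and 1803 ± 105, each with all 3 mutant libraries above. The other members at 20°C had mutant libraries on both sides of the WT library. A single WT library gives no test, and the share of all genes with the mutant libraries all on one side of it was not counted. The response of miR-85(n4117) to HS lies wholly within lane 3, and that of WT has the same lane in each pair of equal number.

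Whether the response to HS differed between the strains was tested as the interaction in the fit of all 12 libraries. No member was called by edgeR or DESeq2, and of all genes edgeR called 0% and DESeq2 0.00681%. The interaction estimates of 9 of the 10 members were below 0, as were 47.7% of all genes, and their median was -0.46 on the log2 scale against 0.02 over all genes. The signs of hsp-12.1, hsp-25, sip-1 and F08H9.3 turned when 1 library was left out. An unadjusted p under 0.05 was found for 3 members with edgeR, and for 2.15% of all genes. These were F08H9.4 (-2.98, SE 1.08), hsp-12.6 (-2.002, SE 0.75) and hsp-12.3 (-1.65, SE 0.64), each with an adjusted p of 1.0. They are the same 3 genes that were higher at 20°C in miR-85(n4117) replicates 2 and 3, and these estimates share the libraries at 20°C with that comparison. For hsp-25 the interaction was 0.00 (SE 0.22), for hsp-17 -0.40 (SE 0.36), for hsp-43 -0.52 (SE 0.55) and for sip-1 -0.37 (SE 0.72).

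The members were set beside other genes of the heat shock and insulin pathways, on lists chosen with earlier results of these data known. Of all genes, 6.11% were called higher and 5.42% lower after HS in WT, and 4.43% and 3.31% in miR-85(n4117). Of 13 genes of the HSF-1 pathway, 7 were called higher after HS in WT and 6 in miR-85(n4117), and none lower. The largest among those called in WT was F44E5.4, a gene of the inducible HSP70 type, with a log2 fold change of 10.09 (SE 0.96) that is uncertain because its near-identical copy F44E5.5 (9.92) may share reads, and the smallest was hsp-1, the constitutive HSP70 gene, with 1.05 (SE 0.18). hsf-1 itself was not called (0.34 in WT, adjusted p = 0.088). The log2 fold change of hsp-12.6 in WT was thus below that of hsp-70 (10.08) and above that of hsp-110 (2.85), a chaperone of the HSP110 type. Of 8 genes of the DAF-16 pathway, sod-3, which encodes a mitochondrial superoxide dismutase, was called higher in WT (2.87, adjusted p = 0.010) and in miR-85(n4117) (2.02, adjusted p = 0.048), and ins-7, an insulin-like peptide, was called lower in miR-85(n4117) (-1.15, adjusted p = 0.037). The other genes of that list were not called. Of 6 hsp-16 identifiers 5 could be tested, and 4 were called higher in each strain, with a median log2 fold change of 9.22 in WT and 7.49 in miR-85(n4117) over the 5. The alpha-crystallin domain genes Y55F3BR.6 and ZK1128.7, which are not members by name, were not called (0.24 and 0.10 in WT, and 0.37 and 0.16 in miR-85(n4117), all adjusted p at least 0.19).

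The genes whose log2 levels followed each member most closely were looked up among the protein-coding genes tested, by Pearson r over the 12 libraries. The points share their libraries and the contrast of HS, so that r is given as a description. For hsp-12.6 they were dnj-13, a DnaJ cochaperone (r = 0.99, called higher after HS with a log2 fold change of 2.78 in WT), R11A5.3 (0.99) and F19B2.5 (0.99). For hsp-12.3 they were ZK1240.8 (0.99), efk-1, the elongation factor kinase (0.99), and F16B12.4 (0.98), and F16B12.4 was also the second for F08H9.4 (0.98), after CC8.2 (0.99) and before hsp-12.3 (0.98). For hsp-43 they were B0222.5 (0.99), ttr-32 (0.99) and cest-24 (0.98). For hsp-17, whose range over the libraries was smaller, pfd-5, a prefoldin subunit, came first (0.95), and for hsp-25 lbp-9, a lipid binding protein gene (0.97).

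The genes closest to the remaining members were mostly not called after HS, which did not set them apart from hsp-17 and hsp-25. Neither pfd-5 (log2 fold change 0.53 in WT and 0.21 in miR-85(n4117)) nor lbp-9 (0.72 and 0.60) reached the 2-fold limit. Among the others of their 3 closest, cpi-1 passed the limits on fold and adjusted p in WT (1.38) and D1053.3 in miR-85(n4117) (1.38). For hsp-12.1 and hsp-12.2 none passed, with clec-144 (r = 0.93) and Y53G8B.1 (0.97) first. For sip-1 the closest were exc-14 (r = 0.98), bir-2 (0.98) and Y48G8AL.13 (0.97), of which only Y48G8AL.13 was called, and only in WT (log2 fold change 1.11, adjusted p = 0.022). For F08H9.3 they were W02D7.11 (0.95), F20C5.6 (0.94) and Y6E2A.4 (0.94), none of them called in either strain. Among the members themselves r was highest between F08H9.4 and hsp-12.3 (0.98), and between hsp-12.6 and both F08H9.4 (0.97) and hsp-12.3 (0.97). The neighbours F08H9.3 and F08H9.4 had an r of 0.70, and sip-1 and hsp-12.1 the lowest of the 45 pairs (0.22).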

How the data were processed

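Per the labels and the paper, total RNA was depleted of ribosomal RNA, made into stranded libraries, aligned with STAR (ce11) and counted on genes, each library on its own. The authors deposited raw counts of reads per gene, made by featureCounts 1.6.5 with strand setting 2 on Ensembl release 100 (per the file headers). Names and WBcel235 positions came from Ensembl release 115, which held 46817 of 46904 identifiers.

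Counts were analysed in R 4.3.3 with edgeR 4.0.16 (filterByExpr, TMM, robust quasi-likelihood, Benjamini-Hochberg adjustment over all genes tested). HS and interaction came from 1 fit of 12 libraries and strain contrasts from fits of 6. SEs were taken from the fold change and its F statistic. RPKM used exon length and TMM-scaled library size. Log2 CPM for correlations had a prior count of 2. Ratio intervals are exact binomial (95%). Procedures were tested on simulated data. Alternatives were DESeq2 1.42.0, RLE, protein-coding genes only, 2 other filters, other libraries in the fit, lane, replicate block and leaving out libraries. Named genes were the members, listed genes, neighbours and the 3 most alike genes. The members and lists were chosen with earlier results of these data known. No sequences are printed.

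Replicate numbers come from the titles. Same-numbered libraries correlated (deviations from group means, 15287 genes) at 0.31, 0.14 and 0.39 for HS in WT. Between strains after HS they correlated at 0.51, 0.59 and 0.36. The main fits behind the calls did not use this pairing. It entered only the replicate block, an alternative fit, and the values given for same-numbered pairs. For HS in miR-85(n4117) the values were -0.23, -0.37 and 0.43, and between strains at 20°C they were 0.10, -0.25 and 0.04. In these 2 comparisons the sign of r differed between replicate numbers, so whether the libraries were paired could not be told.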

Additional observations from a re-analysis of the deposited data

How the results depend on the processing

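hsp-12.6, hsp-12.3, F08H9.4 and hsp-43 were called after HS in both strains under every alternative in which they were tested. Requiring 10 counts in every library left 7 members to test, and 3 were called higher in WT (4.13% of genes) and 2 in miR-85(n4117) (2.5%). Leaving out each library gave 5 calls in WT and 4 in miR-85(n4117) each time, and 0 for the strain contrasts and the interaction. Among the WT calls sip-1 took the place of hsp-17 without WT replicate 3 at 20°C or WT replicate 1 after HS. The background of these fits was not constant. For HS in WT, the lowest share of genes called higher was 3.65% and the highest 7.23%. The mutant response had its lowest share at 2.86% and its highest at 4.89%. With the replicate block 6 members were called in WT (5.03% of genes were higher), as sip-1 was added (log2 fold change 1.57), and no other call changed.

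Scaled to protein-coding counts only, the summed level was 512 RPKM in WT and 491 RPKM in miR-85(n4117) at 20°C, and 1133 and 794 RPKM after HS. Its strain difference at 20°C, -50.1 RPKM, ran from -101 to 21.6 RPKM when 1 library was left out. The difference for HS ran from 372 to 606 RPKM in WT and from 220 to 277 RPKM in miR-85(n4117), and that between strains after HS from -405 to -171 RPKM.

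hsp-25 lost its adjusted p under 0.05 in WT in 4 of 12 fits without 1 library and in miR-85(n4117) in 6. The log2 fold change of F08H9.4 in WT ran from 5.59 to 7.27 over these fits and that of F08H9.3 from 1.36 to 3.69. No reversal concerned a call. With the lane as a covariate the sign turned at 20°C for hsp-17 (-0.14), hsp-25 (0.033), hsp-43 (0.11) and sip-1 (0.56), and after HS for hsp-12.1 (-0.13), hsp-12.3 (0.026), hsp-43 (0.30), sip-1 (0.16) and F08H9.3 (2.45). F08H9.3 after HS also turned with the replicate block (0.036) and without both replicate 2 libraries (0.11), which turned the interaction of sip-1 as well (0.18). Leaving out 1 library moved the log2 strain difference at 20°C of hsp-17 from -0.17 to 0.22, of hsp-12.2 from -0.14 to 0.31, of hsp-12.1 from -0.069 to 0.23, of hsp-43 from -0.20 to 0.069 and of sip-1 from -0.91 to 0.18. After HS it moved F08H9.3 from -1.06 to 1.51 and hsp-12.1 from -0.025 to 0.23. The interaction moved from -0.19 to 0.12 for hsp-25, from -0.14 to 0.16 for hsp-12.1, from -1.15 to 0.13 for sip-1 and from -1.82 to 0.76 for F08H9.3. The cause was not tested. Gene length from the longest transcript, chosen after the data were seen because the tables give no length, kept the summed levels within 1 SD. Depth limits hsp-12.6 and F08H9.4 at 20°C, with 0 to 23 reads per library.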

Other observations

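The nearest protein-coding gene on each side of each of the 10 members was looked up by position. Apart from the members that neighbour each other, 4 of these genes were called higher after HS in WT. Another, lelo-3, 11893 bases from hsp-25, passed the limits on fold and adjusted p in WT (2.50, adjusted p = 0.047) but not the other limits of a call. In miR-85(n4117) its log2 fold change was 2.28 (adjusted p = 0.055). Of all genes, 6.11% were called higher and 5.42% lower in WT, and 4.43% and 3.31% in miR-85(n4117). Whether neighbours of the members were called more often than other genes was not tested. The receptor guanylyl cyclase gene gcy-7, 1426 bases from hsp-17 on the other strand, had a log2 fold change of 4.26 in WT (adjusted p = 0.00055) and 2.22 in miR-85(n4117) (adjusted p = 0.0069), above the 1.05 and 0.66 of hsp-17. C14F11.4, 102 bases from hsp-43 on the same strand, had 1.28 (adjusted p = 0.0022) and 1.02 (adjusted p = 0.0083). F38E11.9, 750 bases from hsp-12.3, was called in WT only (1.23, adjusted p = 0.0032, against 0.96, adjusted p = 0.013, in miR-85(n4117)), and F08H9.2, 889 bases from F08H9.3, likewise (1.31, adjusted p = 0.0071, against 0.99, adjusted p = 0.031). The difference between strains was not tested for these genes. clec-57, a C-type lectin gene 4802 bases from F08H9.4, was called lower in both strains (-1.27, adjusted p = 0.032, and -1.40, adjusted p = 0.027). C14B9.2, 1427 bases from hsp-12.2, was called lower in WT (-1.08, adjusted p = 0.0068). urm-1 and sly-1, at 206 and 256 bases from sip-1, were not called.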
